A study of Mus with 10 samples.

Results

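The beta2 integrins are adhesion receptors of leukocytes, each made of the shared beta chain CD18 and 1 of 4 alpha chains. Here, *Itgb2* (CD18), its alpha partners *Itgal* (CD11a), *Itgam* (CD11b), *Itgax* (CD11c) and *Itgad* (CD11d), and the ligand genes *Icam1* and *Icam2* were followed in liver type 1 innate lymphoid cells (ILC1s) with and without NKp46. These 7 genes were taken by name from the 24564 genes of the count table, with earlier results of these data known. All 7 passed the filter on low counts, as did 11463 genes in all.

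An alpha chain reaches the cell surface only when paired with CD18. CD11a with CD18 forms LFA-1, which binds ICAM-1 and ICAM-2 and holds lymphocytes and cytotoxic cells to their targets. CD11b with CD18 forms Mac-1, or complement receptor 3, known from myeloid cells and from mature natural killer (NK) cells, in which CD11b is a marker of maturation. CD11c and CD11d are best known from dendritic cells and macrophages, although activated lymphocytes can carry CD11c as well.

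The study compared 5 libraries of *Ncr1*+/+ ILC1s with 5 of *Ncr1*gfp/gfp ILC1s, in which gfp replaces both copies of *Ncr1*, the gene of the activating receptor NKp46. All mice were C57BL/6 and, by the study's methods, young adults of either sex. Cells were sorted from the liver as lineage-negative, NK1.1+, CD49b- and CD49a+. A further gate was NKp46 staining in *Ncr1*+/+ and GFP in *Ncr1*gfp/gfp mice, so that this difference in gating cannot be told apart from the genotype. No source calls the mice of the genotypes littermates, so a difference between colonies cannot be told apart from the genotype either. The sources do not say whether a library came from 1 mouse or from pooled mice, and p-values measure the spread between these libraries.

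Library totals lay between 15796253 and 22623133 counts. Levels are given as CPM, the counts of a gene scaled to a common depth, after TMM normalization between libraries. Values of single libraries follow the order of replicates 1 to 5. The targeted gene checked the labels, with *Ncr1* between 1913 and 2144 CPM in *Ncr1*+/+ and between 141 and 356 CPM in *Ncr1*gfp/gfp libraries. Across the *Ncr1*gfp/gfp libraries it was 340, 356, 141, 172 and 285 CPM, so reads of the gene remained in uneven amounts. By flow cytometry, the study calls NKp46 on *Ncr1*gfp/gfp ILC1s negligible, with a small share of positive cells. The source of the remaining *Ncr1* reads was not tested. Of the ILC1 marker list, 10 genes were measured and all 10 were tested. Its summed level was 4809 to 5297 CPM in *Ncr1*+/+ and 5199 to 5441 CPM in *Ncr1*gfp/gfp libraries, led by *Klrb1c* (NK1.1) and *Itga1* (CD49a). Within this list *Gzmc* was called higher and *Il7r* lower in *Ncr1*gfp/gfp ILC1s. The 7 integrin and ICAM genes had between 275 and 53221 counts in a library, so counting error was small beside the spread between libraries.

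To ask which members differ between the genotypes, each gene was tested by the quasi-likelihood method of edgeR, and p-values were adjusted after Benjamini and Hochberg over all 11463 genes. To be called, a gene needed both an adjusted p-value below 0.05 and more than 1.5-fold or less than 0.7-fold the *Ncr1*+/+ level. This rule called 1 of the 7 members, *Itgam*, as higher in *Ncr1*gfp/gfp ILC1s, against 0.733% of all tested genes, 0.201% higher and 0.532% lower. By the adjusted p-value alone, 3 members differed, against 1.35% of all tested genes, with *Itgam* and *Itgax* higher and *Itgad* lower. For the same 3 genes the libraries of the genotypes did not overlap. Of all tested genes, 1.28% lay without overlap above and 1.82% below *Ncr1*+/+. Since the members were chosen with earlier results of these data known, these shares are a description and no test of the set. The median log2 fold change was -0.05 over the members and 0.0027 over all tested genes.

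**Figure D1:**
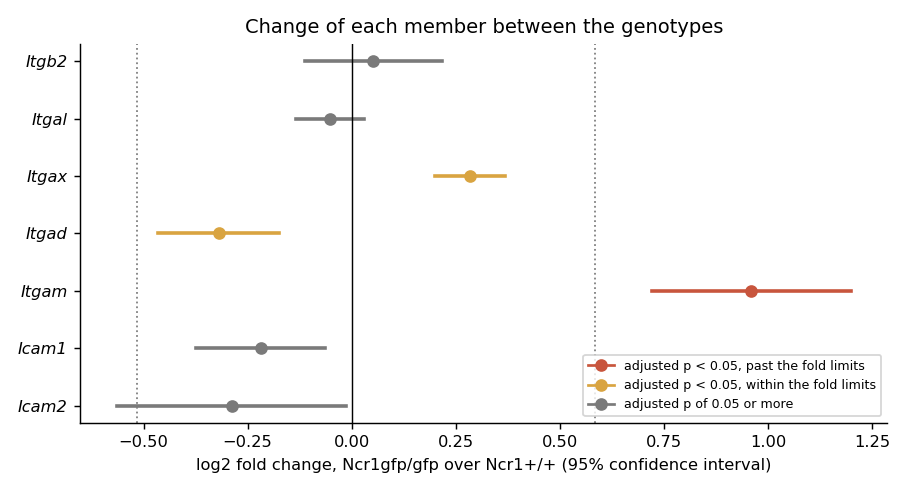
Log2 fold change of each member, *Ncr1*gfp/gfp over *Ncr1*+/+ (x axis), with its 95% confidence interval from edgeR. Dotted lines mark the fold change limits of 1.5 and 0.7. *Itgam* is the only member past a limit, *Itgax* and *Itgad* lie on opposite sides of 0, and the intervals of *Itgb2* and *Itgal* include 0. Intervals are not adjusted for the number of genes tested. Those of *Icam1* and *Icam2* lie below 0, although their adjusted p-values in edgeR were 0.194 and 0.401.

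*Itgam*, the alpha chain of Mac-1, showed the largest change among the members. The table places it at 135206154 to 135262005 of chromosome 7, plus strand, without naming the build of its coordinates. The CPM of *Itgam* was 46.4, 53.4, 45.1, 43.3 and 58.8 across the *Ncr1*+/+ libraries, and across the *Ncr1*gfp/gfp libraries it was 121, 108, 92.2, 82.3 and 76.0. The lowest *Ncr1*gfp/gfp library was thus above the highest *Ncr1*+/+ library. The mean rose from 49.4 ± 6.50 to 96.0 ± 18.7 CPM (SD, n = 5 each), a fold change of 1.94 with a 95% confidence interval of 1.65 to 2.29. The log2 fold change was 0.96 with a standard error of 0.11 (adjusted p = 5.59e-05 in edgeR), and the gene ranked 9 among all tested genes by p-value. The two-sided exact permutation test gave p = 0.00794, the smallest that 5 libraries against 5 allow. The call held in each of the 10 fits without 1 library, with log2 fold changes between 0.86 and 1.03.

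The *Ncr1*gfp/gfp libraries were also more spread out than the *Ncr1*+/+ libraries for *Itgam*, with coefficients of variation of 19.4% and 13.2%. *Ncr1*gfp/gfp replicates 1 and 2 were the highest. In bulk samples a larger share of CD11b+ cells and more *Itgam* RNA per cell cannot be told apart.

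*Itgax*, which encodes the alpha chain CD11c, was far more abundant and rose less. Its CPM was 1325, 1360, 1426, 1454 and 1440 across the *Ncr1*+/+ libraries, and across the *Ncr1*gfp/gfp libraries it was 1762, 1661, 1717, 1745 and 1648. Libraries of a genotype were close together, within a coefficient of variation of 3.96% in *Ncr1*+/+ and 2.96% in *Ncr1*gfp/gfp ILC1s, and a gap separated the genotypes. The fold change of 1.22 (95% confidence interval 1.15 to 1.29) was under the limit of 1.5, so *Itgax* was not called. Its log2 fold change of 0.28 (standard error 0.04) had an adjusted p of 0.000539 in edgeR's quasi-likelihood test and ranked 14 among all tested genes by p-value. The exact permutation test gave p = 0.00794. The adjusted p-value stayed between 0.000706 and 0.00251 in the 10 fits that left out a single library.

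*Itgad*, which encodes the alpha chain CD11d, moved the other way. Its CPM was 175, 165, 154, 161 and 190 across the *Ncr1*+/+ libraries, and across the *Ncr1*gfp/gfp libraries it was 138, 149, 138, 130 and 122. Every *Ncr1*gfp/gfp library was below every *Ncr1*+/+ library, although the nearest, *Ncr1*gfp/gfp replicate 2 and *Ncr1*+/+ replicate 3, were only 149 and 154 CPM. The mean fell from 169 ± 14.0 to 135 ± 9.96 CPM (SD, n = 5 each), a fold change of 0.802 (95% confidence interval 0.725 to 0.886). The log2 fold change was -0.32 with a standard error of 0.07 (adjusted p = 0.0191 in edgeR), within the fold change limits. The exact permutation p was 0.00794. This difference was less firm than those of *Itgam* and *Itgax*, since the adjusted p rose to between 0.0577 and 0.0654 when *Ncr1*gfp/gfp replicate 4 or 5, or *Ncr1*+/+ replicate 1 or 5, was left out.

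*Itgal* encodes the alpha chain of LFA-1. Its CPM was 2482, 2348, 2519, 2512 and 2460 across the *Ncr1*+/+ libraries, and across the *Ncr1*gfp/gfp libraries it was 2279, 2270, 2542, 2394 and 2402. The genotypes overlapped, with *Ncr1*gfp/gfp replicate 3 the highest library of all. The log2 fold change was -0.05 with a standard error of 0.04 (adjusted p = 0.702 in edgeR), and the 95% confidence interval of the fold change ran from 0.912 to 1.02.

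The shared beta chain *Itgb2* varied more between libraries of a genotype than between the genotypes. Its CPM was 1148, 1085, 1467, 1447 and 1528 across the *Ncr1*+/+ libraries, and across the *Ncr1*gfp/gfp libraries it was 1254, 1305, 1525, 1447 and 1392. *Ncr1*+/+ replicates 1 and 2 were the lowest, and the other 3 *Ncr1*+/+ libraries were at the level of the higher *Ncr1*gfp/gfp libraries. The log2 fold change of *Itgb2* was 0.05 with a standard error of 0.08 (adjusted p = 0.879 in edgeR), with a 95% confidence interval of the fold change from 0.925 to 1.16. Without *Ncr1*+/+ replicate 2, it was -0.02.

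**Figure D2:**
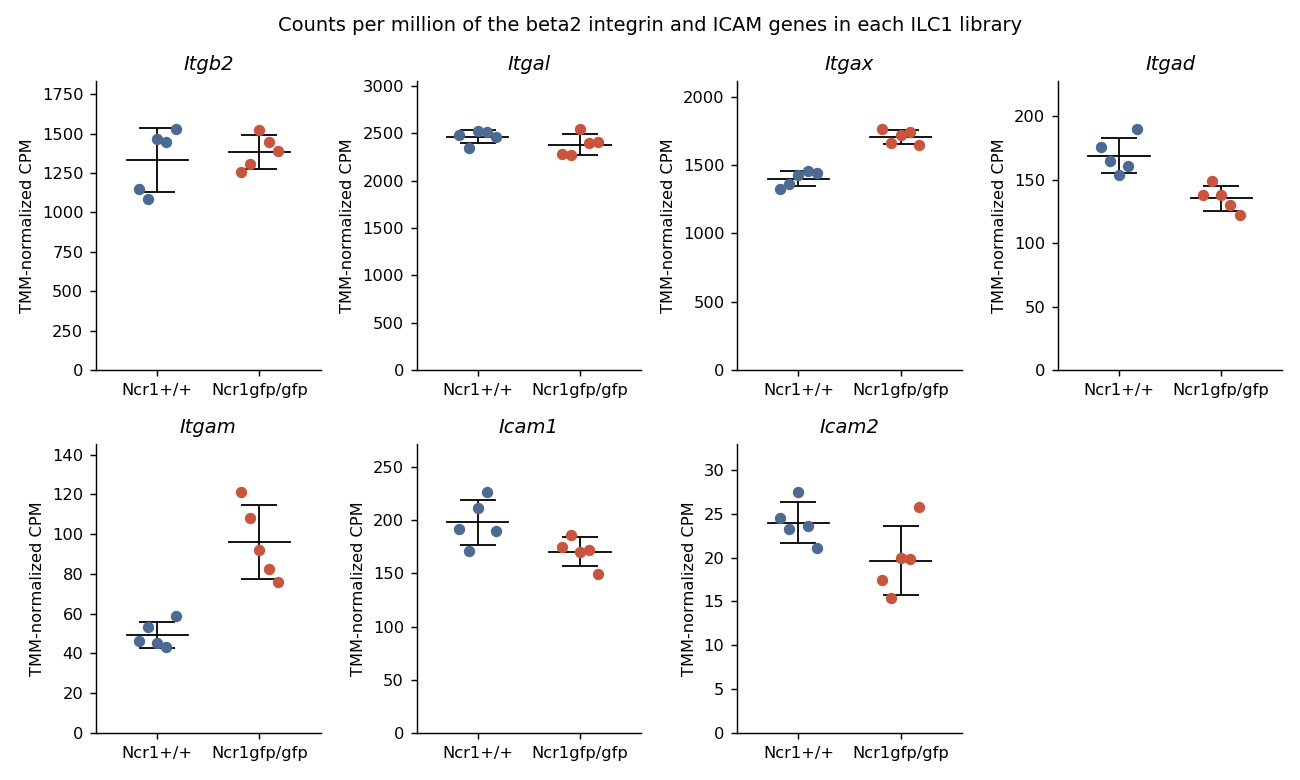
TMM-normalized CPM (y axis, from 0) of each member in every library, by genotype. Points are libraries in the order of their replicate numbers, and bars give the mean and SD of 5 libraries. The genotypes are apart for *Itgam*, *Itgax* and *Itgad* and overlap for *Itgb2*, *Itgal*, *Icam1* and *Icam2*.

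The ligand genes were lower on average in *Ncr1*gfp/gfp ILC1s, and neither passed the test. *Icam1* encodes ICAM-1, the main ligand of LFA-1, which Mac-1 binds as well. Its CPM was 192, 172, 211, 227 and 190 across the *Ncr1*+/+ libraries, and across the *Ncr1*gfp/gfp libraries it was 175, 187, 170, 172 and 149. Only *Ncr1*+/+ replicate 2 reached down into the range of the *Ncr1*gfp/gfp libraries. The log2 fold change was -0.22 with a standard error of 0.07 (unadjusted p = 0.00814, adjusted p = 0.194 in edgeR), and the 95% confidence interval of the fold change was 0.772 to 0.957 before any adjustment. The exact permutation test gave p = 0.0317.

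*Icam2* encodes ICAM-2, a shorter ligand of LFA-1. Its CPM was 24.6, 23.2, 27.5, 23.6 and 21.1 across the *Ncr1*+/+ libraries, and across the *Ncr1*gfp/gfp libraries it was 17.5, 15.4, 19.9, 19.8 and 25.8. In *Ncr1*gfp/gfp, 4 libraries were below all of *Ncr1*+/+ and replicate 5 was among the highest. The log2 fold change was -0.29 with a standard error of 0.13 (unadjusted p = 0.0410, adjusted p = 0.401 in edgeR), and the exact permutation p was 0.0714. The confidence interval of the fold change, 0.676 to 0.991 before any adjustment, was the widest of the members on the log2 scale.

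Levels of different genes were compared as CPM per kb of exon. In *Ncr1*+/+ ILC1s, *Itgal* (472 ± 13.2) and *Itgb2* (467 ± 70.9) had the highest levels (CPM per kb, mean ± SD, n = 5), and their ranges overlapped. *Itgax* followed with 348 ± 13.8 CPM per kb, below the lowest *Itgb2* library. These 3 genes stood above more than 99% of all tested genes, at percentiles of 99.6 for *Itgal* and *Itgb2* and 99.4 for *Itgax*. *Icam1* (77.0 ± 8.21), *Itgad* (42.6 ± 3.53) and *Icam2* (18.7 ± 1.83 CPM per kb) came next without overlap. *Itgam* was the lowest member at 10.5 ± 1.39 CPM per kb, near the middle of all tested genes (percentile 48.1).

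The order changed at its lower end in *Ncr1*gfp/gfp ILC1s. *Itgam* reached 20.5 ± 3.99 CPM per kb and *Icam2* was at 15.3 ± 3.04 CPM per kb (SD, n = 5 each), with overlapping ranges. *Itgax*, at 424 ± 12.6 CPM per kb, now overlapped with *Itgal* at 455 ± 21.2 CPM per kb. *Itgb2* had 484 ± 37.9 CPM per kb.

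**Figure D3:**
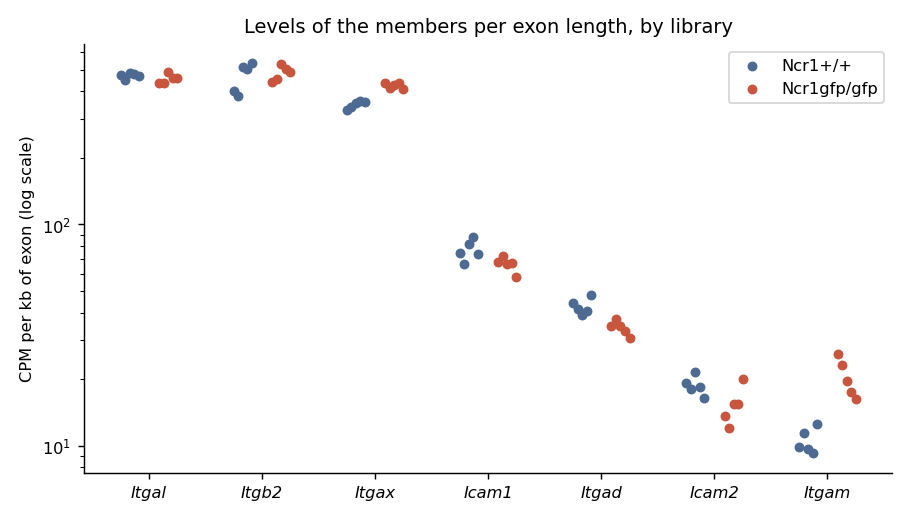
Level of each member in CPM per kb of exon (y axis, log scale) in every library, ordered by the mean in *Ncr1*+/+ ILC1s. *Itgal*, *Itgb2* and *Itgax* lie far above the other members, and *Itgam* is the lowest in *Ncr1*+/+ and level with *Icam2* in *Ncr1*gfp/gfp libraries.

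Since the alpha chains share a single beta chain, their relative amounts were set side by side. Of the reads per kb on the 4 alpha chains, *Itgam* took 1.16, 1.36, 1.09, 1.04 and 1.41% across the *Ncr1*+/+ libraries, and across the *Ncr1*gfp/gfp libraries it took 2.77, 2.55, 2.04, 1.86 and 1.77%. Mac-1 transcripts thus remained a small part of the alpha chain pool in both genotypes. The mean share of *Itgax* was 39.9 ± 0.862% in *Ncr1*+/+ and 45.4 ± 1.09% in *Ncr1*gfp/gfp, and that of *Itgal* was 54.03 ± 0.916% in *Ncr1*+/+ and 48.7 ± 1.55% in *Ncr1*gfp/gfp (SD, n = 5 each). *Itgad* took 4.88 ± 0.413% in *Ncr1*+/+ and 3.66 ± 0.298% in *Ncr1*gfp/gfp. These shares depend on each other and are given as a description. The summed alpha chain level was 873 ± 22.6 CPM per kb in *Ncr1*+/+ and 934 ± 23.4 CPM per kb in *Ncr1*gfp/gfp ILC1s. The sums did not overlap, with at most 892 CPM per kb in *Ncr1*+/+ and at least 908 CPM per kb in *Ncr1*gfp/gfp libraries. Relative to *Itgb2*, the summed level was 1.90 ± 0.255 and 1.94 ± 0.127 (ratio per kb, SD, n = 5 each), and the ranges of this ratio overlapped.

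**Figure D4:**
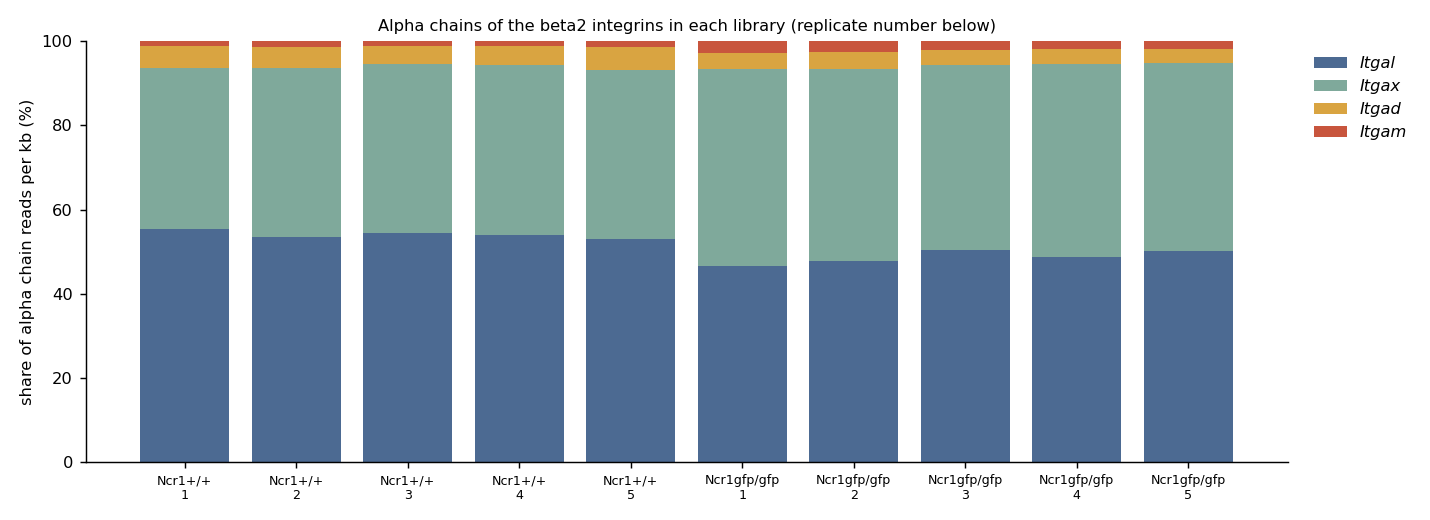
Share of the reads per kb (y axis, percent) that each alpha chain took in every library, with *Ncr1*+/+ on the left and *Ncr1*gfp/gfp on the right. *Itgal* and *Itgax* fill most of each bar. The *Itgam* part is between 1.04 and 1.41% in *Ncr1*+/+ and between 1.77 and 2.77% in *Ncr1*gfp/gfp libraries.

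The change of *Itgam* beside its relatives is given by the log2 ratio of counts within each library, which needs no normalization between libraries. These ratios were chosen after the values had been seen and restate the differences above, so they are a description without a test. The mean ratio of *Itgam* to *Itgal* was higher by 1.00 in *Ncr1*gfp/gfp ILC1s, that to *Itgax* by 0.66, that to *Itgad* by 1.27 and that to *Itgb2* by 0.89 (log2 scale).

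*Itgam*, *Itgax* and *Itgad* follow one another on the plus strand of chromosome 7, with 11077 bases between *Itgam* and *Itgax* and 23289 bases between *Itgax* and *Itgad*. In the table *Itgax* spans 135273082 to 135294171, *Itgad* spans 135317460 to 135349017, and *Itgal*, on the same strand, spans 134439774 to 134478651. *Itgb2* is on chromosome 10 (76993093 to 77028419, plus strand), *Icam1* on chromosome 9 (20820384 to 20833258, plus strand) and *Icam2* on chromosome 11 (106238970 to 106244095, minus strand). *Ncr1* is on the same chromosome at a distance of 131 Mb from *Itgam*. Of the genes that start within 1 Mb of *Itgam*, 55 were tested, among them the other 3 alpha chain genes. *Itgax* and *Itgad* were the only ones of the 55 with an adjusted p-value under 0.05. Of the 52 that are not members, 24 were higher and 28 lower, none was called, 5 had an unadjusted p under 0.05, and the lowest adjusted p was 0.169 (edgeR's quasi-likelihood test). Beside the cluster, *Pycard*, an inflammasome adaptor, had 37.3 CPM in *Ncr1*+/+ and 37.0 CPM in *Ncr1*gfp/gfp. On the other side, the nearest tested gene, *9130023H24Rik*, had 25.0 and 21.7 CPM, and *Armc5* after it had 50.5 and 45.1 CPM. For *Pycard*, *9130023H24Rik* and *Armc5*, the adjusted p was 0.982, 0.570 and 0.488 in edgeR's test. These genes were named for their place on the chromosome after their values were seen. Within *Itgad*, the genes *4931431B13Rik* and *Cox6a2* overlap on the other strand. They had at most 7 and 15 counts in any library, and with a kit that does not mark strand their reads cannot be told apart from those of *Itgad*.

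CD11b also marks NK cells and myeloid cells, and lists of their markers were read beside *Itgam*. The NK cell list without member genes held 18 genes, of which 16 were tested, 11 with a positive and 5 with a negative log2 fold change, and none was called. Its summed level was 686 to 748 CPM in *Ncr1*+/+ and 652 to 724 CPM in *Ncr1*gfp/gfp libraries, with *Prf1* and *Irf8* the most abundant and *Klra4* at 0 counts in every library. *Prf1* had 343 ± 15.4 CPM in *Ncr1*+/+ and 344 ± 22.5 CPM in *Ncr1*gfp/gfp. The 3 genes of the list with the smallest p-values had lower means in *Ncr1*gfp/gfp ILC1s. These were *Irf8*, at 150 ± 9.28 and 128 ± 6.92 CPM without overlap (adjusted p = 0.0735, edgeR), *Ly6c2*, at 9.05 ± 1.96 and 5.32 ± 1.82 CPM (adjusted p = 0.125, edgeR), and *Klf2*, at 47.4 ± 31.5 and 26.0 ± 4.54 CPM (adjusted p = 0.207, edgeR; SD, n = 5 each). *Itga2* (CD49b) and *Eomes*, which define NK cells against ILC1s, had higher means in *Ncr1*gfp/gfp, at 40.5 ± 6.83 and 49.004 ± 6.27 CPM for *Itga2* (adjusted p = 0.331, edgeR) and at 7.10 ± 1.08 and 10.2 ± 4.88 CPM for *Eomes* (adjusted p = 0.455, edgeR; SD, n = 5 each). The part of the NK cell list in the integrin results was not tested.

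Of the myeloid lists, those of macrophages, monocytes and dendritic cells had lower mean sums in *Ncr1*gfp/gfp than in *Ncr1*+/+ ILC1s, and that of neutrophils had a higher mean sum. The macrophage list, with 11 of 16 genes tested and led by *Lyz2* and *Mpeg1*, summed to 17.04 to 112 CPM in *Ncr1*+/+ and 14.7 to 74.7 CPM in *Ncr1*gfp/gfp libraries. The monocyte list summed to 246 to 328 CPM and 118 to 242 CPM, without overlap, and *Ly6c1* was at 0 counts. Most of the sum was the chemokine receptor gene *Ccr2*, which lymphoid cells can also express and which was called lower at 161 ± 37.8 against 265 ± 29.1 CPM (adjusted p = 0.00258, edgeR). None of the 13 neutrophil markers passed the filter, and their sum was 0.202 to 1.41 CPM in *Ncr1*+/+ and 0 to 16.99 CPM in *Ncr1*gfp/gfp libraries, the highest in *Ncr1*gfp/gfp replicate 3. The part of this list in the *Itgam* result was not tested. The dendritic cell list, led by *Cd74* and *Bst2*, summed to 54.2 to 138 CPM in *Ncr1*+/+ and 39.9 to 70.0 CPM in *Ncr1*gfp/gfp libraries.

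The summed level of the T cell list was likewise apart between the genotypes. Of 12 genes measured, 9 were tested, 7 with a positive and 2 with a negative log2 fold change. Of the 9, 3 were called, *Cd3e* and *Cd8a* higher and *Cd28* lower. The sum was 782 to 907 CPM in *Ncr1*+/+ and 968 to 1186 CPM in *Ncr1*gfp/gfp libraries, led by *Cd3g* and *Bcl11b*, and most of it was *Cd3g*. The called *Cd3e* and *Cd8a* had means of 5.72 and 6.69 CPM in *Ncr1*+/+ and of 21.1 and 19.4 CPM in *Ncr1*gfp/gfp. *Cd5*, *Cd6* and *Cd8b1* did not pass the filter, with at most 2.80, 1.06 and 0.841 CPM in any library. The T cell receptor genes *Trac*, *Trbc1* and *Trbc2* were not measured. *Cd3g* had 501 ± 53.1 CPM in *Ncr1*+/+ and 687 ± 74.6 CPM in *Ncr1*gfp/gfp, without overlap (adjusted p = 0.00169, edgeR) and within the fold change limits. *Bcl11b* had 134 ± 13.9 and 133 ± 18.4 CPM (SD, n = 5 each). The part of the T cell and monocyte lists in the integrin results was not tested. For the hepatocyte and endothelial lists the ranges of the genotypes overlapped. Hepatocyte markers summed to 123 to 235 CPM over all libraries, the highest in *Ncr1*gfp/gfp replicate 3. Most of this sum was *Trf*, with means of 138 CPM in *Ncr1*+/+ and 135 CPM in *Ncr1*gfp/gfp. *Alb*, the next, had means of 7.48 and 9.37 CPM. Endothelial markers, whose cells carry much ICAM-1 and ICAM-2, summed to 120 to 156 CPM, with *Lyve1*, *Emcn* and *Tie1* at 0 counts. Most of the endothelial sum was *Pecam1*, with means of 130 CPM in *Ncr1*+/+ and 138 CPM in *Ncr1*gfp/gfp. *Eng* (called lower) came next, with means of 8.26 and 3.81 CPM.

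Beta2 integrins are opened for binding from inside the cell by talin, kindlin-3 and the GTPase Rap1. Of 30 genes of this activation machinery, 27 were tested, 11 were higher, 16 were lower and none was called. By the unadjusted p, 3 of these stood first, the Rap1 inhibitor family gene *Sipa1l1* (log2 fold change 0.22, adjusted p = 0.0800), *Cyth1*, which encodes the CD18-binding cytohesin-1 (-0.24, adjusted p = 0.163), and the Rap1 activator *Rasgrp2* (-0.26, adjusted p = 0.447, edgeR for all 3). *Tln1* (talin) and *Fermt3* (kindlin-3), named for their role, had log2 fold changes of -0.05 and -0.04 with standard errors of 0.04 and 0.06 (adjusted p = 0.754 and 0.868, edgeR). The median log2 fold change of this list was -0.03. Over all tested genes, 0.733% were called and 49.3% were lower, to be set beside this list and the pathway lists below.

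Of 45 genes that carry signals from bound integrins or link them to actin, 43 were tested, 16 were higher and 27 were lower, and 1 was called. This was *Vav2*, a guanine nucleotide exchange factor, at 25.9 ± 4.03 CPM in *Ncr1*+/+ and 13.2 ± 4.31 CPM in *Ncr1*gfp/gfp ILC1s (SD, n = 5 each). For *Vav2* the log2 fold change was -0.98 with a standard error of 0.18 (adjusted p = 0.00525 in edgeR), and the genotypes did not overlap. *Vcl*, which encodes the talin-binding vinculin, had 14.7 ± 1.29 and 8.87 ± 3.13 CPM (log2 fold change -0.73, adjusted p = 0.0780, edgeR), and *Elmo1*, a partner of the Rac activator DOCK2, was at -0.24 on the log2 fold change scale (adjusted p = 0.132, edgeR). The median of the list was -0.02.

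Of 21 other ligands of beta2 integrins, only 6 passed the filter, and none was called, although all 6 had a lower mean in *Ncr1*gfp/gfp ILC1s. The median log2 fold change was -0.63, and 5 of the 6 genes were under 6 CPM. *Thy1*, a ligand of Mac-1, was the abundant one at 269 ± 40.4 and 215 ± 21.3 CPM (log2 fold change -0.32, adjusted p = 0.0835, edgeR). *Plau* and *Fn1*, which encode urokinase and fibronectin, had 1.62 ± 0.485 and 5.50 ± 7.69 CPM in *Ncr1*+/+ against 0.569 ± 0.531 and 1.40 ± 1.79 CPM in *Ncr1*gfp/gfp libraries (adjusted p = 0.358 and 0.441, edgeR). *Cyr61* and *Ctgf* were matched by their older symbols and had at most 1 count in a library.

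Among 22 other integrin subunits, 15 were tested, with 9 higher, 6 lower and a median log2 fold change of 0.04. *Itgb3*, the beta chain of vitronectin receptors, was called lower, at 111 ± 18.8 CPM in *Ncr1*+/+ and 74.6 ± 14.3 CPM in *Ncr1*gfp/gfp ILC1s (log2 fold change -0.58, adjusted p = 0.0141, edgeR). *Itga1*, which encodes the CD49a of the sorting gate, rose by less than the limit, from 779 ± 30.4 to 971 ± 35.1 CPM (log2 fold change 0.32, adjusted p = 0.000481, edgeR). For *Itga5*, the fibronectin receptor chain, the log2 fold change was -0.40 (adjusted p = 0.143, edgeR). The call of *Itgb3* was lost without *Ncr1*gfp/gfp replicate 2 or 4 or without *Ncr1*+/+ replicate 1 or 3, which left *Vav2* as the only pathway gene called.

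**Figure D5:**
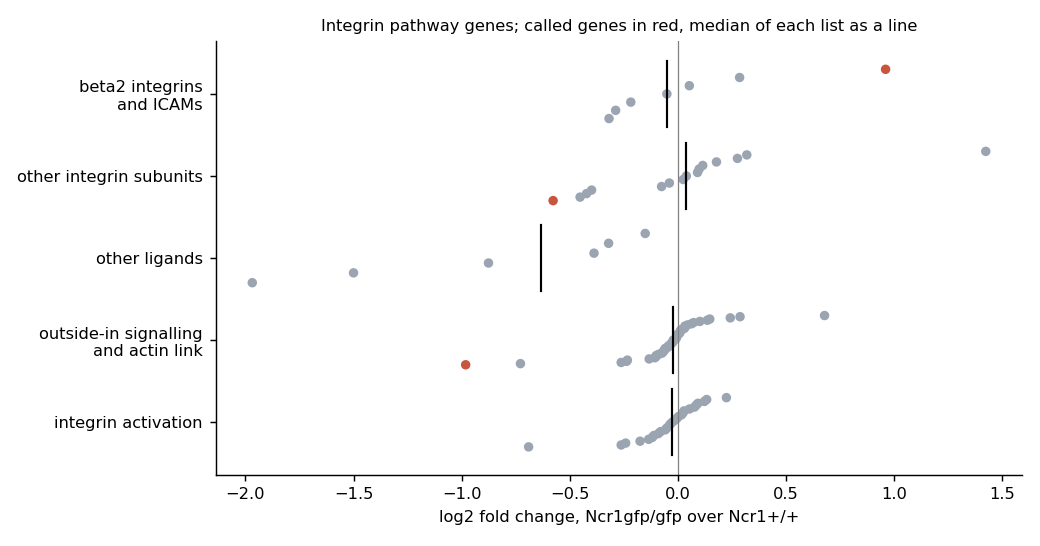
Log2 fold change of each tested gene (x axis), *Ncr1*gfp/gfp over *Ncr1*+/+, in the integrin gene lists (rows). Red points are called genes and vertical lines are list medians, which are -0.03 for integrin activation, -0.02 for outside-in signalling, -0.63 for other ligands, 0.04 for other subunits and -0.05 for the beta2 integrins and ICAMs.

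Genes with a pattern most like that of *Itgam* were sought by Pearson's r of log2 CPM over the 10 libraries, as a description, since all points share the same libraries and depth. The 5 highest were *Phactr2* (r = 0.961), *Traf3ip1* (0.950), *Myo10* (0.945), *Aoah* (0.938) and *Gpd2* (0.938). *Traf3ip1* and the unconventional myosin gene *Myo10* were called higher in *Ncr1*gfp/gfp ILC1s, with log2 fold changes of 0.72 and 0.93 (adjusted p = 0.00145 and 0.000521, edgeR). With the genotype means removed, r with *Itgam* was between 0.645 and 0.830 for the 5 genes, the highest for *Phactr2*.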

How the data were processed

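Poly(A) RNA-seq libraries of sorted liver ILC1s were analysed. Per the study's methods, the authors trimmed single-end reads and mapped them to mm10 using STAR, and gene counts came from HTSeq at its defaults, which leave out reads that map to several places. The cDNA kit does not mark strand. The deposited counts are whole numbers without normalization. The deposited exon lengths, in bases, were used for levels per kb. The deposited gene coordinates are not those of mm10, and no build is named for them.

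Low counts were removed by filterByExpr, libraries were scaled by TMM, and genotypes were compared in edgeR 4.0.16 (R 4.3.3; quasi-likelihood F-test) over both genotypes without covariates. Intervals are 95% and were derived from the F statistic. These intervals are for the difference between the genotypes and include the spread between libraries. A floor of 3 counts corresponded to 0.132 to 0.190 CPM in single libraries and covers counting error only. Within the genotypes, none of 20 library pairs agreed within sampling noise (chi-square per gene between 9.18 and 24.0). Fits were tested on simulated data.

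Members and gene lists were chosen with earlier results of these data known. By the rule for named genes, these are the members, called genes and the 3 smallest p-values of each pathway list, the 5 genes most like *Itgam* and *Itgb2*, and the 2 most abundant genes of each marker list. Other genes (*Tln1*, *Fermt3*, *Pycard*, *9130023H24Rik*, *Armc5*, *Itga2*, *Eomes*, *Ly6c2*, *Klf2*, *Cd5*, *Cd6*, *Cd8b1*, *Cyr61*, *Ctgf*, genes at 0 counts, overlapping genes and called marker genes) were chosen after their values were seen. Alternatives were DESeq2 1.42.0, limma-voom (limma 3.58.1), upper-quartile normalization, other filters and thresholds, a replicate block and leaving out each library. Sequences were not used here. One marker list is not reported here.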

Additional observations from a re-analysis of the deposited data

How the results depend on the processing

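*Itgam* stayed called, and was the only member called, under DESeq2, upper-quartile normalization, limma-voom, both other filters and the replicate block, with log2 fold changes between 0.87 and 0.96. With an absolute log2 fold change above 1 as the limit, 0 members and 0 pathway genes were called, since *Itgam* lies at 0.96. With the adjusted p-value alone, 3 members were called. limma-voom called 1 pathway gene in place of 2. Without 1 library each, 1 member and between 1 and 3 pathway genes were called, and the log2 fold change of *Itgb2* lay between -0.02 and 0.11, reversed, at -0.0154, only without *Ncr1*+/+ replicate 2. The third pathway gene was *Vcl*, called without *Ncr1*gfp/gfp replicate 5, with DESeq2 and without a filter. Over all genes, 84 were called, against 128 with DESeq2, 131 without a filter, 23 with the limit of 1 and 155 by the adjusted p-value alone. In plain counts, the mean share of *Itgam* among the alpha chains was 1.21% in *Ncr1*+/+ and 2.23% in *Ncr1*gfp/gfp.

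Both genotypes carry replicate numbers 1 to 5, but same-numbered libraries did not deviate together (r between -0.02 and 0.04 over all tested genes), and 1 of the 10 libraries correlated best with its own number. With the replicate block, 1 member and 2 pathway genes were called, 87 genes were called in all, and the log2 fold change of *Itgam* was 0.95 (adjusted p = 0.000245, edgeR). No call of a member changed with the block.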

Other observations

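Genes with a pattern most like that of *Itgb2* were sought in the same way as for *Itgam*. Over the 10 libraries, the 5 genes whose log2 CPM was most like that of *Itgb2* were *Cd5l* (Pearson's r = 0.970), *P2rx7* (0.934), *Zmynd8* (0.933), *Ttll3* (0.933) and *1810011H11Rik* (0.898). The r values after removing genotype means were between 0.894 and 0.974. *Cd5l*, a gene of macrophages, was near 2 CPM, while *P2rx7*, the ATP-gated channel gene, had 201 ± 126 CPM in *Ncr1*+/+ and 174 ± 54.01 CPM in *Ncr1*gfp/gfp ILC1s (SD, n = 5 each). None of the 5 was called (the adjusted p-values were between 0.641 and 0.954, edgeR's quasi-likelihood test). The 5 genes were picked for the highest r among all tested genes, and whether they share the spread of *Itgb2* was not tested. These are descriptions over shared libraries.

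*Ncr1*gfp/gfp replicate 5 carries the number 66 in its label, while the other 9 libraries are numbered from 49 to 57, and no source says what the number marks. This library had the lowest *Itgam*, *Itgax*, *Itgad* and *Icam1* levels of its genotype and the highest *Icam2* level. Without it, the log2 fold change of *Itgam* was 1.03 and that of *Itgad* was -0.28.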
